A study of Homo sapiens with 6 samples.

Results

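Carbonic anhydrases are zinc enzymes that interconvert carbon dioxide and water with bicarbonate and a proton. The 8 genes described here (CA1, CA2, CA4, CA8, CA9, CA11, CA12 and CA13) were picked by gene symbol from a table of 27685 genes, and 6 of the 8 had enough counts to be tested. They were followed in Caco-2, an established human colorectal cancer line, by sequencing of polyA RNA in 3 libraries labelled FABP1 antisense and 3 vector control libraries. The first group is labelled hFABP1as, with the genotype FABP1_knockdown, and derives from Caco-2 cells transfected to lower FABP1, the gene of a cytosolic fatty acid carrier of liver and intestine. The second is labelled pcDNA3, with the genotype WT, and was mock-transfected. Both groups were grown in the same serum-containing medium. The number of transfected lines or clones behind each group is not in the labels, so the construct and the choice of line cannot be told apart. Separate cultures are not named either, so each p-value speaks for the spread among these libraries alone, and that spread may be technical.

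In the gut epithelium the cytosolic enzymes supply bicarbonate and protons to the exchangers that absorb sodium chloride and control luminal pH. Membrane-bound enzymes do the same work on the outer face of the cell. CA9 is a classical target of the hypoxia-inducible factors, and both CA9 and CA12 are known as surface enzymes of tumours. CA8 and CA11 are related proteins that lack the zinc-binding residues needed for catalysis.

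Libraries held 41768687 to 55153051 counts in the group labelled FABP1 antisense and 40351394 to 57979037 in the vector control, so that 3 counts over a group corresponded to 0.0211 and 0.0212 CPM (counts on a common scale after TMM normalization). FABP1 itself was not lower, at 134 ± 12.4 CPM in libraries labelled FABP1 antisense and 120 ± 18.0 CPM in the vector control (SD, n = 3 each). Its log2 fold change was 0.16 (SE 0.12, 95% interval -0.10 to 0.42, edgeR quasi-likelihood test, Benjamini-Hochberg adjusted p = 0.268), and the table does not separate RNA of the construct from RNA of the gene. The 9 intestinal epithelial markers summed to 15200 to 17890 CPM in libraries labelled FABP1 antisense and 13080 to 15980 CPM in the vector control, mostly from the keratin genes KRT8 and KRT18. Of 8 tested, 5 were higher, with log2 fold changes of 3.17 for KRT20, 1.32 for CDH17, 1.09 for CDX2, 0.27 for KRT18 and 0.20 for CDH1. VIL1 fell by 0.20, and KRT8 and EPCAM did not pass. The part of these epithelial markers in the results on carbonic anhydrases was not tested. The leukocyte markers summed to 58.3 to 60.7 against 32.0 to 34.8 CPM, but PTPRC had 0 counts in every library. The fibroblast markers summed to 31.3 to 34.9 against 15.8 to 19.7 CPM, with COL1A2 and DCN at 0 counts in every library. LUM, at 18.1 against 0.133 CPM, passed the filter on low counts only through libraries labelled FABP1 antisense. COL3A1 was higher (log2 fold change 0.69), PDGFRB was lower (-1.13) and COL1A1 did not pass.

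The carbonic anhydrases did not move as a block. CA12 and CA2 rose in libraries labelled FABP1 antisense, CA8, CA9 and CA13 fell, CA11 did not pass the test, and CA1 and CA4 were at or near 0 counts. Thus 2 of the 6 tested genes were called higher, where 27.7% of all 14640 tested genes were, and 3 were called lower, where 27.3% were. With both directions together 55% of all tested genes were called, and the groups of libraries did not overlap in 62.7%, against 5 of these 6. CA9 passed the filter on low counts only through its vector control libraries. A change at least as large as that of CA12 was found in 1.88% of all tested genes, and the shares for CA8 and CA2 were 5.68% and 10.4%. For CA13 and CA11 the shares were 30.1% and 96.3%. These are levels in bulk RNA, in which fewer cells of a type and less RNA per cell cannot be told apart.

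**Figure D1:**
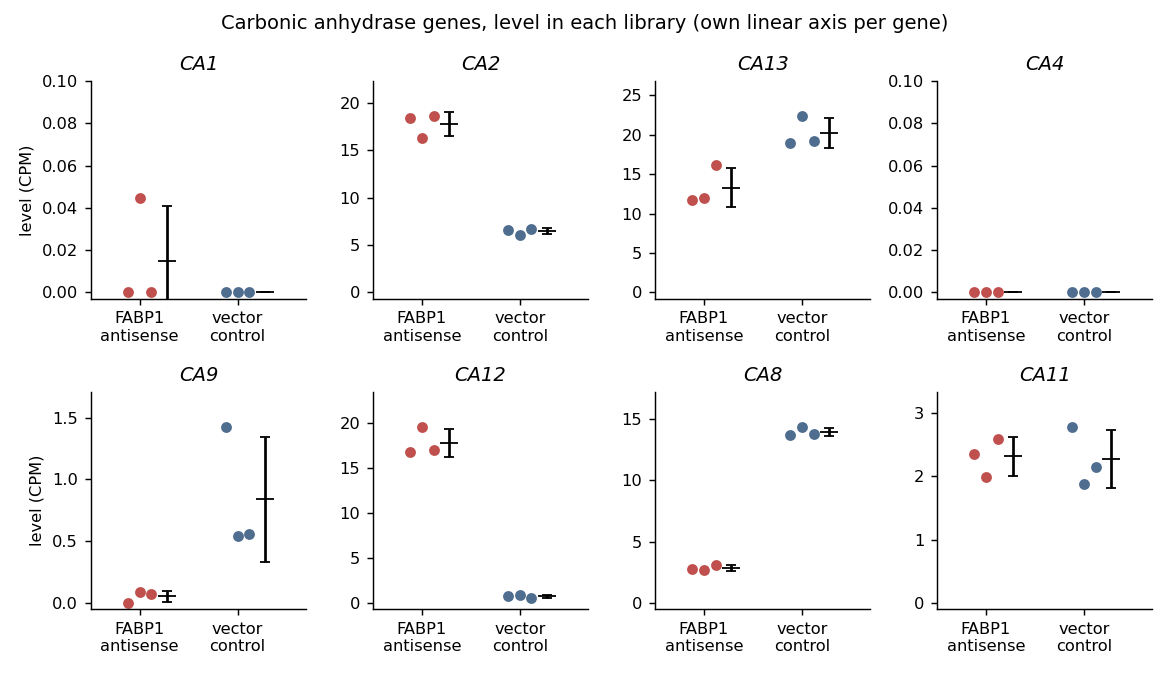
Level of each of the 8 genes in CPM (linear axis from 0, its own for each gene) in the 3 libraries labelled FABP1 antisense (red, left) and the 3 vector control libraries (blue, right). Bars beside the points are the mean and SD. CA12 and CA2 are higher in all 3 libraries labelled FABP1 antisense, CA13, CA9 and CA8 are lower in all 3, and CA11 overlaps.

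Among the cytosolic enzymes, CA2, a fast isozyme of many secretory and absorptive epithelia, had 18.4, 16.3 and 18.6 CPM in libraries labelled FABP1 antisense, against 6.62, 6.10 and 6.66 CPM in the vector control. Every library labelled FABP1 antisense lay above every vector control library. CA2 was 2.75-fold higher, a log2 fold change of 1.46 (SE 0.09, 95% interval 1.25 to 1.67, edgeR quasi-likelihood test, Benjamini-Hochberg adjusted p = 3.17e-06). CA13, another cytosolic isozyme, moved the other way. Its level was 11.8, 11.9 and 16.2 CPM in libraries labelled FABP1 antisense, against 18.9, 22.4 and 19.3 CPM in the vector control. The groups did not overlap, although the gap between the highest library labelled FABP1 antisense and the lowest vector control library was smaller than the range within either group. CA13 fell by 0.60 on the log2 scale (SE 0.14, 95% interval -0.91 to -0.29, adjusted p = 0.00520 by the same test), or 1.52-fold. It shares 191 exon bases with the antisense RNA AC011773.3, which was not analysed here.

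CA1, the abundant isozyme of red blood cells and of the colonic surface epithelium, had 0, 2 and 0 counts in libraries labelled FABP1 antisense and 0 counts in each vector control library. It was therefore not tested, and both groups lay under the level of 3 counts over a group. Red cells are a known source of CA1, though not the only one outside the colon. The 12 erythroid markers summed to 2.84 to 4.18 CPM in libraries labelled FABP1 antisense and 2.97 to 4.01 CPM in the vector control. Of these 12 genes, 9 had 0 counts in all libraries, and the sums came mainly from the near-identical pair HBA1 and HBA2, between which counts can be split in error. CA3, a cytosolic enzyme of low activity best known from muscle, had 23, 21 and 40 counts in libraries labelled FABP1 antisense, against 80, 49 and 74 in the vector control. CA3 fell by 1.30 on the log2 scale (SE 0.28, edgeR quasi-likelihood test, Benjamini-Hochberg adjusted p = 0.00381), with no overlap of the groups. It shares 165 exon bases with the antisense gene CA3-AS1, and the use of strand in counting is not stated in the sources used here.

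The largest change among the 6 tested genes was that of CA12, a transmembrane enzyme with its catalytic domain outside the cell. CA12 had 16.8, 19.6 and 17.0 CPM in libraries labelled FABP1 antisense, from 693, 875 and 957 counts. In the vector control it had 0.833, 0.906 and 0.559 CPM, from 48, 37 and 24 counts. The groups lay far apart, and CA12 was 23.1-fold higher. On the log2 scale it rose by 4.53 (SE 0.17, 95% interval 4.15 to 4.90, edgeR quasi-likelihood test, Benjamini-Hochberg adjusted p = 1.15e-07).

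CA9, the other transmembrane enzyme, was close to 0 and lower in libraries labelled FABP1 antisense. It had 0, 4 and 4 counts there, against 82, 22 and 24 counts in the vector control, or 0.0535 ± 0.0472 and 0.840 ± 0.505 CPM (SD, n = 3 each). The highest library labelled FABP1 antisense lay below the lowest vector control library, and vector control library 2 stood well above its own group. CA9 fell by 3.88 on the log2 scale (SE 0.71, 95% interval -5.48 to -2.27, adjusted p = 0.00168 by the same test). Without vector control library 2 the log2 fold change was -3.24 (adjusted p = 0.00871). CA9 shares 643 exon bases with ARHGEF39 on the opposite strand. ARHGEF39 was far more abundant, at 38.8 CPM in libraries labelled FABP1 antisense and 45.5 CPM in the vector control. ARHGEF39 fell by 0.23 on the log2 scale (SE 0.07, adjusted p = 0.0226), and its part in the counts of CA9 was not tested. CA4, which is anchored to the apical membrane by a lipid, had 0 counts in all 6 libraries.

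CA9 and CA12 moved in opposite directions, and their promoters were read for the core of the hypoxia response element, ACGTG or GCGTG on either strand. The 250 bases before each start are given below 5′ to 3′ on the strand of the gene, from RefSeq, build GRCh38.p14, with the match in capitals. CA9 lies on the plus strand, at chr9:35673678-35673927, and CA12 on the minus strand, at chr15:63381847-63382096. Of the 8 genes, 2 had a promoter in the table used.
CA9: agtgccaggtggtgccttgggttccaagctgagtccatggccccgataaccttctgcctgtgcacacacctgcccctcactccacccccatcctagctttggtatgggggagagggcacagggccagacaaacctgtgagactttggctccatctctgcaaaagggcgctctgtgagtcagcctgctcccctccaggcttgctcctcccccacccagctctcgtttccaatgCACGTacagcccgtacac
CA12: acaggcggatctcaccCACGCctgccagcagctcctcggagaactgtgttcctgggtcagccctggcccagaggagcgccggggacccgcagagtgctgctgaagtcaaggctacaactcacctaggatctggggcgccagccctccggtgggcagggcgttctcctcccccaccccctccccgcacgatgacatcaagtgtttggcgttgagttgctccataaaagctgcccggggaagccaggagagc
The CA9 window held 1 match, to ACGTG read on the opposite strand, which begins 18 bases before the start. The CA12 window held 1 match, to GCGTG read on the opposite strand, 234 bases before the start. Of 35116 promoter windows of the same length 18.5% held ACGTG, 32.2% held GCGTG and 43.2% held at least 1 of them, so a match is common. These matches are descriptions of sequence and show no binding.

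Of the related proteins without catalytic activity, CA8 binds the inositol trisphosphate receptor ITPR1 and is best known from cerebellar Purkinje cells. It had 2.74, 2.71 and 3.13 CPM in libraries labelled FABP1 antisense, against 13.7, 14.4 and 13.8 CPM in the vector control. The groups were tight and far apart, and CA8 was 4.87-fold lower. Its log2 fold change was -2.28 (SE 0.10, 95% interval -2.52 to -2.05, edgeR quasi-likelihood test, Benjamini-Hochberg adjusted p = 4.28e-07). CA11, a secreted relative, had 2.36, 1.99 and 2.59 CPM in libraries labelled FABP1 antisense, against 2.78, 1.89 and 2.14 CPM in the vector control. The ranges overlapped, and the log2 fold change of 0.02 (SE 0.21, 95% interval -0.45 to 0.49) did not pass the same test (adjusted p = 0.928). The interval leaves room for changes of either sign at this depth. Of the 4 neuron markers, RBFOX3 and SNAP25 had 0 counts in every library, SYP was higher (5.66 CPM in libraries labelled FABP1 antisense and 2.30 CPM in the vector control, log2 fold change 1.29, SE 0.17), and TUBB3, at 11.9 and 14.6 CPM, did not pass. The part of these markers in the fall of CA8 was not tested.

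**Figure D2:**
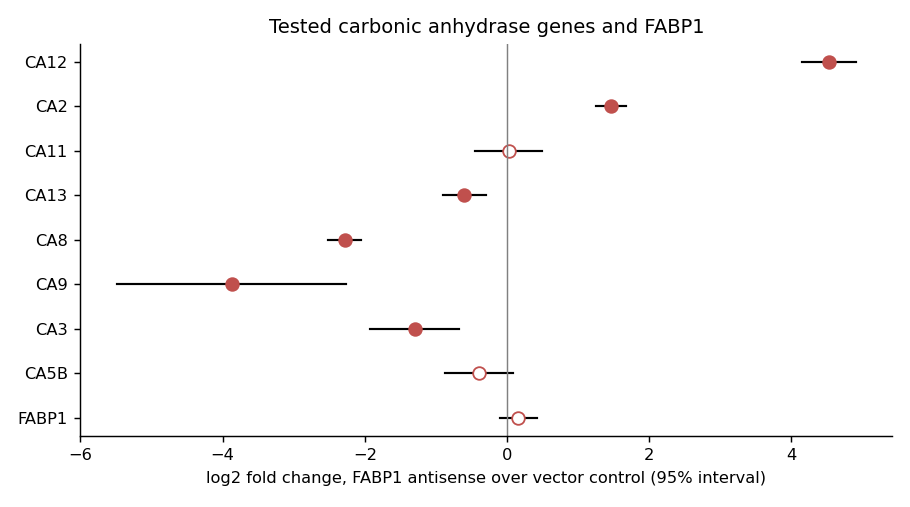
Log2 fold change of the 6 tested genes, of CA3 and CA5B and of FABP1, in libraries labelled FABP1 antisense over the vector control. Lines are 95% intervals, and filled points passed an adjusted p of 0.05. CA12 at 4.53 and CA2 at 1.46 lie right of 0, CA13, CA8 and CA9 lie left of it, and the interval of CA9 is wide.

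Of the remaining family members outside the 8, only CA5B had enough counts to be tested. CA5B, a mitochondrial enzyme, averaged 3.35 ± 0.897 CPM in libraries labelled FABP1 antisense and 4.43 ± 0.610 CPM in the vector control (SD, n = 3 each). Its log2 fold change of -0.39 (SE 0.21) did not pass (edgeR quasi-likelihood test, Benjamini-Hochberg adjusted p = 0.145). Without the library labelled FABP1 antisense 4, CA5B was lower by the same test (log2 fold change -0.61, adjusted p = 0.0378). Reads of CA5B may also be split with its pseudogene copy CA5BP1. The other mitochondrial gene, CA5A, had 0 counts in libraries labelled FABP1 antisense and 9, 6 and 0 in the vector control. CA10 had 3 counts in 1 library and CA14 had 2, 4 and 0 counts in libraries labelled FABP1 antisense, both with 0 in the vector control. CA6 and CA7 had 0 counts throughout.

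Levels of different genes were compared per kilobase (kb) of transcript, on the median length of each gene's matched transcripts. In the libraries labelled FABP1 antisense CA2 led with a mean of 10.4 CPM per kb, followed by CA12 at 3.89 and CA13 at 3.48, whose libraries overlapped. CA11 at 1.25 and CA8 at 0.750 CPM per kb came next, each apart from its neighbours. In the vector control CA13 led with 5.29 CPM per kb, then CA2 at 3.76 and CA8 at 3.66, whose libraries overlapped, and then CA11 at 1.23. There, CA3 at 0.820, CA5B at 0.648 and CA9 at 0.519 CPM per kb could not be ordered beyond their spread, and CA12 at 0.167 stood below them. CA2 thus stood apart at the head of the order in libraries labelled FABP1 antisense, and CA13 did so in the vector control. The place of CA12 depends on its transcript, since its 4 matched transcripts run from 2556 to 6413 bases. On these lengths its mean level was 2.78 to 6.96 CPM per kb in libraries labelled FABP1 antisense and 0.120 to 0.300 in the vector control.

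Summed per kb over 14 family genes, carbonic anhydrase RNA was 20.2, 19.6 and 22.1 CPM per kb in libraries labelled FABP1 antisense, against 16.5, 16.3 and 15.8 in the vector control. The membrane-bound enzymes made up 18.3%, 22.3% and 17.0% of it in libraries labelled FABP1 antisense, against 6.44%, 3.26% and 2.96% in the vector control. The proteins without activity made up 10.0%, 9.13% and 10.1%, against 31.0%, 29.4% and 30.3% in the vector control. Both shares came from groups that did not overlap, the membrane-bound share being higher and the inactive share lower in libraries labelled FABP1 antisense. CA12 held most of the membrane-bound level there (mean 3.89 against 0.167 CPM per kb), while CA9 of that class was lower (0.0331 against 0.519). Of the inactive relatives CA8 was lower (0.750 against 3.66 CPM per kb), and CA11 was at 1.25 against 1.23. The shares also depend on the transcript length taken for CA12. The cytosolic enzymes held the most in every library, at 69.9%, 66.1% and 70.1% in libraries labelled FABP1 antisense, against 58.3%, 62.0% and 62.7% in the vector control. These shares are descriptions and carry no test.

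**Figure D3:**
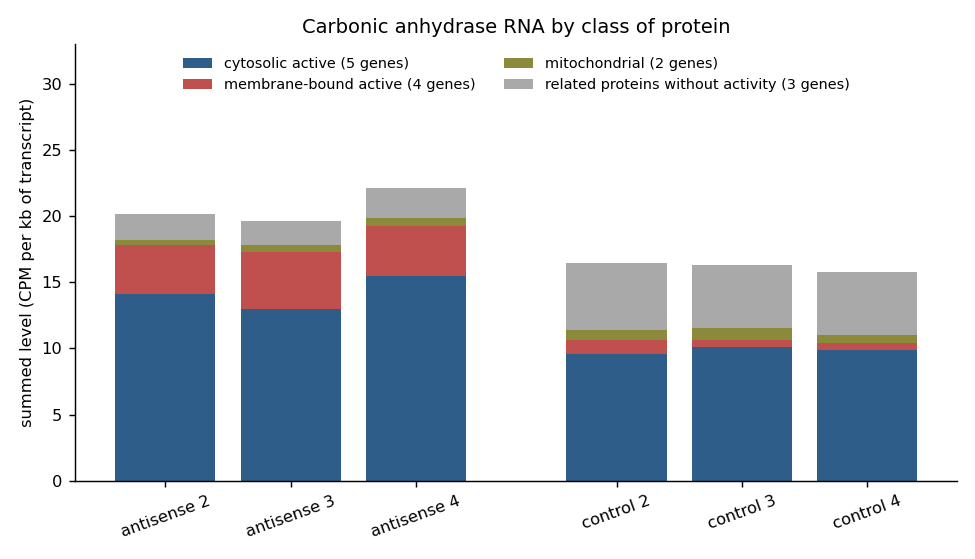
Summed level of 14 carbonic anhydrase genes in each library (CPM per kb of transcript, bars from 0), split into cytosolic, membrane-bound and mitochondrial enzymes and related proteins without activity. The 3 libraries labelled FABP1 antisense stand left, with totals of 19.6 to 22.1, and the 3 vector control libraries right, with 15.8 to 16.5. The membrane-bound segment is larger and the inactive segment smaller on the left.

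Among the tested genes and the 8 members, CA13, CA1, CA3 and CA2 lie in a run on chromosome 8 in RefSeq gene order. Only the antisense gene CA3-AS1 lies between them, before CA2, and it did not pass (log2 fold change 0.57, SE 0.54). Within this run CA13 and CA3 fell, CA1 was not tested, and CA2 rose, so neighbouring genes of 1 cluster moved in opposite directions. The genes beyond CA13 were each higher in libraries labelled FABP1 antisense, with log2 fold changes of 0.57 for LRRCC1, 0.89 for E2F5 and 0.54 for C8orf59. Beyond CA2, WWP1 was higher by 0.29 on the log2 scale, while RMDN1 (0.18) and CPNE3 (0.21) did not pass the test. Around CA12, on chromosome 15, the 6 nearest tested genes had log2 fold changes of -0.15 to 0.50, with 2 called higher and 4 not passed. The 6 around CA8 ran from -0.39 to 0.46, with 4 called higher and 1 lower, and those around CA9 from -0.60 to 0.73, with 1 higher and 2 lower. CA12, CA8 and CA9 each lay outside the range of their neighbours. The 6 genes around CA11 ran from -0.38 to 0.98, with 1 called higher, and the 6 around CA4 from -0.88 to 0.26, with 4 called lower.

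**Figure D4:**
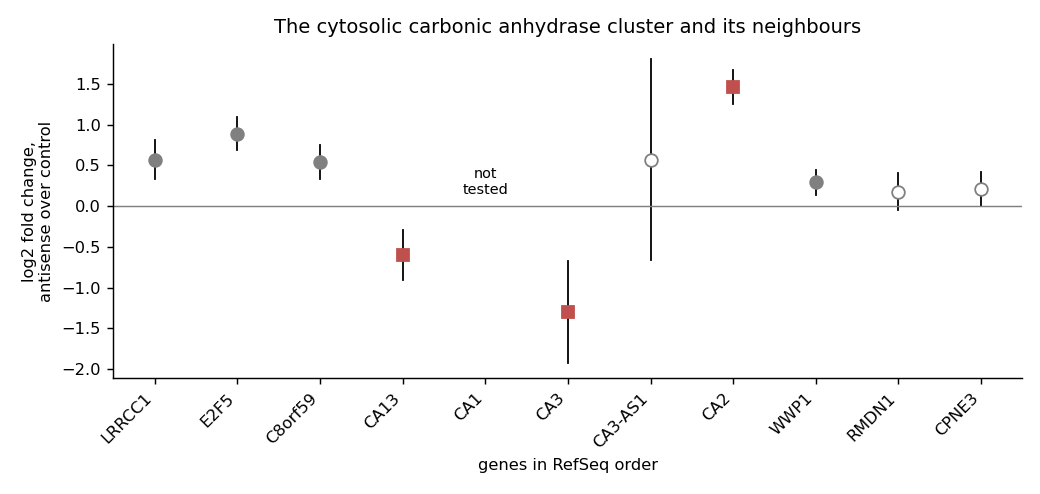
Log2 fold change (libraries labelled FABP1 antisense over vector control, lines 95% intervals) of the genes in the run from LRRCC1 to CPNE3, evenly spaced in RefSeq order. Squares are carbonic anhydrases, circles other genes, and filled marks passed an adjusted p of 0.05. CA2 at 1.46 stands above 0, CA13 at -0.60 and CA3 at -1.30 below it, and CA1 was not tested.

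Genes of bicarbonate and proton transport were followed as a list of 28 genes. The list also held the water channels AQP1 and AQP8, the carrier partner BSG and the sulfate transporter SLC26A2. AQP1 and SLC26A2 are among those called higher, so the counts are not of bicarbonate or proton transporters alone. Of 20 tested, 9 were higher, 6 lower and 5 did not pass, with a median log2 fold change of 0.15, against 0.0082 over all tested genes. Over all tested genes 27.7% were called higher and 27.3% lower, so the share of falls in this list lies near that of all genes. The apical chloride and bicarbonate exchanger SLC26A3 averaged 14.9 ± 0.665 CPM in libraries labelled FABP1 antisense and 0.170 ± 0.0654 CPM in the vector control (SD, n = 3 each). Its log2 fold change was 6.39 (SE 0.19, edgeR quasi-likelihood test, Benjamini-Hochberg adjusted p = 4.51e-08). With 13, 4 and 8 counts in the vector control, SLC26A3 passed the filter on low counts only through libraries labelled FABP1 antisense, as AQP1 did, and SLC4A5 passed only through the vector control. The sodium and proton exchanger SLC9A2 rose by 2.23 (SE 0.15) and the monocarboxylate carrier relative SLC16A4 by 1.75 (SE 0.15) on the log2 scale, while the anion exchanger SLC4A3 fell by 2.12 (SE 0.18). The sodium bicarbonate cotransporter SLC4A4 was also higher, by 1.56 (SE 0.21), as were the apical proton exchanger SLC9A3 by 0.59 (SE 0.09) and the anion channel CFTR by 0.72 (SE 0.08). Among the falls, the bicarbonate transporter SLC4A8 fell by 1.14 (SE 0.11) and the sulfate and anion exchanger SLC26A1 fell by 0.94 (SE 0.15), and SLC4A5 had 2 counts in libraries labelled FABP1 antisense and 138 in the vector control. The red cell anion exchanger SLC4A1 had 0 counts in every library.

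CA1, CA2 and CA4 are genes of the mature colonic surface, and 21 others of that layer were listed. Of 13 tested, 12 were higher and 1, the sodium channel subunit SCNN1A, was lower, against 27.7% and 27.3% of all tested genes. Like the other lists, this list was chosen with earlier results of these data known, so the count is a description only. Of the 13, 4 (SLC26A3, GUCA2B, CEACAM7 and PLAC8) passed the filter on low counts only through libraries labelled FABP1 antisense. The median log2 fold change of 2.91 was the value of GUCA2B (SE 0.69), itself among these 4, which had 18, 0 and 6 counts in the vector control. The median thus depends on genes that passed only that way. The other tested genes ran from -0.85 for SCNN1A to 6.49 for CEACAM5. Among them SLC26A2, HSD11B2, AQP3 and SLC9A3 rose by 0.33, 0.40, 0.57 and 0.59 on the log2 scale. CEACAM1, KRT20 and GUCA2A rose by 2.25, 3.17 and 3.235. CEACAM7 had 773 counts in libraries labelled FABP1 antisense and 0 in the vector control, at least 256-fold higher against 3 counts over the group. CEACAM5, another adhesion molecule of the apical surface, rose by 6.49 (SE 0.19), and the gut peptide gene GUCA2A averaged 7.01 ± 0.204 CPM in libraries labelled FABP1 antisense and 0.747 ± 0.0913 CPM in the vector control. SLC26A3, SLC26A2, SLC9A3 and AQP8 are shared with the transporter list. AQP8 had 0 counts in libraries labelled FABP1 antisense and 2 in the vector control, and MS4A12, BEST4 and SCNN1B had 0 in all libraries, as CA4 did. The list thus held undetected genes beside genes that rose, and of CA1, CA2 and CA4 only CA2 was above the floor.

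Because CA9 is a hypoxia target, 32 hypoxia genes were listed, and 31 were tested. Of these, 8 were higher, 11 lower and 12 did not pass, with a median log2 fold change of -0.13. Over all tested genes 27.7% were called higher and 27.3% lower, so the share of rises in this list lies near that of all genes. The count called higher was 5 with the replicate block, which also left fewer calls over all genes (3355 higher and 3306 lower). It was also 5 without library 2 or library 3 labelled FABP1 antisense or without vector control library 2. The count called lower was 10 to 11 under every alternative. The glucose transporter SLC2A3 averaged 297 ± 14.2 CPM in libraries labelled FABP1 antisense and 904 ± 38.5 CPM in the vector control (SD, n = 3 each), a fall of 1.60 on the log2 scale (SE 0.07). The peptide hormone gene ADM fell by 1.51 (SE 0.10) and HIF3A, a member of the hypoxia-inducible factor family, by 1.24 (SE 0.09). In the other direction the stress-responsive gene NDRG1 rose by 1.48 (SE 0.12) and the angiogenic factor VEGFA by 0.93 (SE 0.07). HIF1A, a subunit of the oxygen-sensitive factor, averaged 174 ± 10.2 CPM in libraries labelled FABP1 antisense and 182 ± 20.9 CPM in the vector control and did not pass (log2 fold change -0.07, SE 0.09). Its partner ARNT fell by 0.88 (SE 0.08), and EPAS1, the subunit of a related factor, rose by 0.47 (SE 0.07).

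Of 11 enzymes that use bicarbonate or release carbon dioxide, 6 were higher, 3 lower and 2 did not pass, against 27.7% higher and 27.3% lower of all tested genes, with a median log2 fold change of 0.32. PCK1, among those called higher, passed the filter only through libraries labelled FABP1 antisense. CPS1, which fixes bicarbonate in the first step of the urea cycle, averaged 77.6 ± 3.50 CPM in libraries labelled FABP1 antisense and 4.73 ± 0.445 CPM in the vector control (SD, n = 3 each), a log2 fold change of 4.04 (SE 0.10). CAD, the cytosolic enzyme that fixes bicarbonate for pyrimidines, fell by 0.66 (SE 0.08), while PCK2, a mitochondrial enzyme that releases carbon dioxide, rose by 0.99 (SE 0.13) and the acetyl-CoA carboxylase gene ACACB by 0.59 (SE 0.11).

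**Figure D5:**
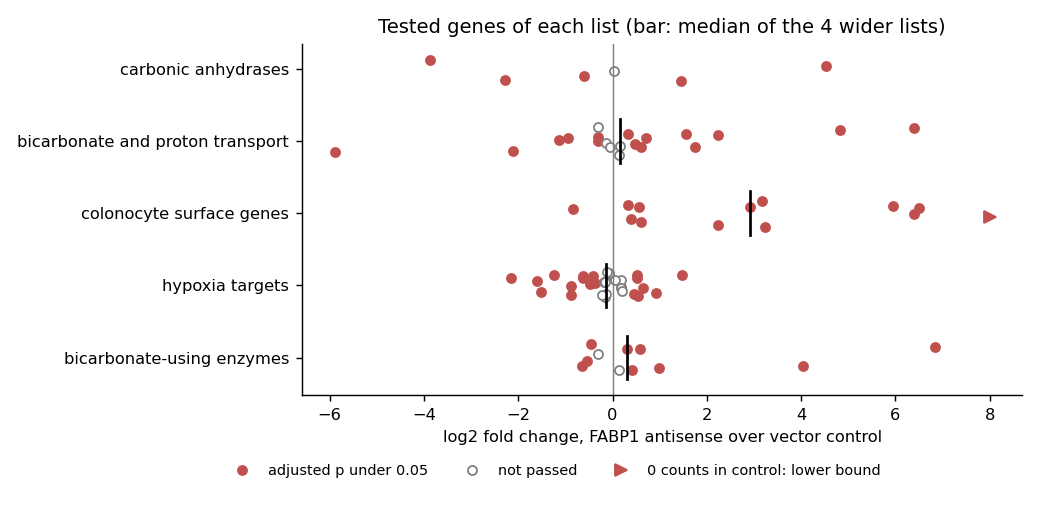
Log2 fold change of each tested gene, in libraries labelled FABP1 antisense over the vector control, for the 6 tested carbonic anhydrases and the 4 lists of related genes. Filled points passed an adjusted p of 0.05, black bars are medians of the 4 lists, and the triangle is CEACAM7 at its lower bound of 256-fold, since it had 0 counts in the vector control. The colonic surface list has a median of 2.91, which is the value of GUCA2B. Of its 13 tested genes, 4, GUCA2B among them, passed the filter on low counts only through libraries labelled FABP1 antisense. The hypoxia list straddles 0.

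Profiles closest to CA12 and CA8 over the 6 libraries were sought among all tested genes, by Euclidean distance between centred log2(CPM + 0.5) values. CEACAM6, an adhesion molecule, lay nearest to CA12 (distance 0.239), at 60.8, 58.1 and 59.1 CPM in libraries labelled FABP1 antisense, against 4.05, 4.48 and 2.89 CPM in the vector control. The semaphorin gene SEMA6A (0.257) and the protein kinase A inhibitor gene PKIB (0.263) came next. Nearest to CA8 lay the receptor phosphatase gene PTPRM (distance 0.0781), at 15.8, 16.3 and 18.0 CPM in libraries labelled FABP1 antisense, against 74.2, 79.3 and 72.3 CPM in the vector control, then the homeobox gene MSX2 (0.177) and the ubiquitin ligase gene NEURL1B (0.181). With 6 libraries in 2 groups, such likeness mostly records a similar difference between the groups and says nothing of shared control.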

How the data were processed

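PolyA RNA of Caco-2 cells was measured in 3 libraries labelled FABP1 antisense and 3 vector control libraries, prepared with TRIzol and the TruSeq Stranded mRNA kit per the labels' protocols. Build GRCh37 and the tools HISAT2 2.1.0, StringTie 1.3.4d, Bowtie2 2.3.4.1, Trimmomatic 0.38 and bcl2fastq are credited to the submitters' processing notes, which give no roles. The authors deposited raw read counts per gene, which were used as deposited. Another 12 columns of per-library values were not used. Columns matched groups but not single samples, since header numbers 2, 3 and 4 differ from the labels' replicate numbers. Header numbers name the libraries here.

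Counts were filtered (filterByExpr), TMM-scaled and compared with the quasi-likelihood test of edgeR 4.0.16 in R 4.3.3, adjusted by Benjamini-Hochberg over 14640 genes, with a threshold of 0.05. The step was checked only on counts simulated from its own fitted dispersions, with few genes changed. Since 55% of tested genes were called here, that check cannot speak for scaling or error rates in these data. SEs are the absolute log2 fold change over the square root of F, and 95% intervals use the test's degrees of freedom. Floors of 3 counts cover counting error only. The biological coefficient of variation was 11.8%. Replicate libraries varied beyond sampling noise, with a chi-square of 14.3 to 41.2 for each degree of freedom.

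Transcript lengths and overlaps came from GENCODE release 29, matched by RefSeq accession, and gene order and promoters from RefSeq (GRCh38.p14). Tables and figures used Python 3.11.15. Alternatives covered scaling, DESeq2 1.42.0, filters, left-out libraries and a replicate block.

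The members and lists were chosen with earlier results of these data known. Per list, up to 4 genes with adjusted p under 0.05, a mean log2 CPM of at least 1 and the largest changes were named. SLC4A4, SLC4A5, SLC4A8, SLC26A1, SLC26A2, SLC9A3, CFTR, BSG, AQP1, SLC4A1, SCNN1A, GUCA2B, PLAC8, CEACAM1, HSD11B2, AQP3, AQP8, MS4A12, BEST4, SCNN1B, CLCA1, CLCA4, OTOP2, TMIGD1, VEGFA, HIF1A, ARNT, EPAS1 and PCK1, and the cell type markers, were named after their values were seen.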

Additional observations from a re-analysis of the deposited data

How the results depend on the processing

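The 2 rises (CA12, CA2) and the falls of CA8 and CA13 kept direction and call under every scaling, test, filter, replicate block and left-out library. CA9 was not tested when 1 CPM in 3 libraries was required, which left 2 members lower. Leaving out libraries gave log2 fold changes of 4.35 to 4.64 for CA12, 1.42 to 1.52 for CA2, -2.36 to -2.24 for CA8, -0.77 to -0.52 for CA13 and -4.32 to -3.24 for CA9. For CA11 the range was -0.094 to 0.20, with a change of sign on leaving out library 4 labelled FABP1 antisense (-0.07), vector control library 3 (-0.094) or vector control library 4 (-0.02), never passing. HIF1A ranged from -0.14 to 0.021, with the change of sign without vector control library 3, also not passed. Among the other carbonic anhydrase genes 1 to 2 were lower, 2 without library 4 labelled FABP1 antisense. The hypoxia genes called higher numbered 5 to 7 with a library left out and 5 with the replicate block. Header numbers did not pair the libraries (correlations 0.04, -0.15 and -0.25). With the block 3355 genes were higher and 3306 lower, in place of 4062 and 3992, and no call on a carbonic anhydrase changed. Scaling moved the median of all genes by at most 0.0112 log2. Depth limits CA1, CA4 and CA9, which had at most 8 counts over the group labelled FABP1 antisense.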
